A study of Rattus norvegicus with 8 samples.

Results

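Biliary and ductular progenitor markers are 8 genes, Krt7, Krt19, Krt8, Krt18, Epcam, Sox9, Spp1 and Prom1, that are used to recognise bile duct cells and the ductular cells of injured liver. They were chosen by gene name among the non-control probes of a rat expression array, which gave 14 probes on 41 spots, of 45598 non-control probes and 27110 named genes in all. The array carried 3 probes for Krt7, 4 for Sox9, 2 for Krt18 and 1 for each of the others. Cells were cut by laser microdissection (LMD), in which an ultraviolet laser excises chosen cells from a tissue section, and 100 ng of RNA per sample was hybridised in 1 colour.

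The 8 samples formed 3 groups. Clusters of small hepatocyte-like progenitor cells (control SHPCs, n = 3) were cut from recipient livers without transplanted cells. A further group of SHPC clusters (n = 3) was cut from recipient livers transplanted with bone marrow-derived mesenchymal cells (BM-MCs). Mature hepatocytes (MHs, n = 2) were cut from recipient livers, and their titles do not say whether cells had been transplanted. The authors' discussion of their array clustering speaks of MHs of livers given BM-MCs. Transplantation may thus differ as well in a comparison with MHs. All recipients were F344 rats that had received retrorsine, an alkaloid that blocks division of resident hepatocytes, followed by partial hepatectomy (Ret/PH), so the MHs are retrorsine-exposed hepatocytes of operated livers and not those of untreated liver. The labels give the strain as DPPIV+, but in the methods only the donors are DPPIV+ and the recipients lack the enzyme. The livers were taken a fortnight after transplantation, and BM-MCs were given through the spleen. SHPC clusters were chosen by their appearance in stained sections. No label ties a sample to an animal, so p-values rest on a spread that may be technical only, and they are too small if samples share an animal.

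Bile duct cells (cholangiocytes) and hepatocytes arise from the same fetal precursor. Keratins pair as type I and type II filaments: Krt8 and Krt18 form the pair of simple epithelia and are made by hepatocytes as well, whereas Krt7 and Krt19 mark cholangiocytes. Epcam is an adhesion molecule of the duct epithelium, Sox9 a transcription factor of duct fate, Spp1 the secreted matrix protein osteopontin and Prom1 a membrane protein of cell protrusions, also known as CD133. After severe injury, ductular cells with these markers spread into the lobule. The paper calls SHPCs hepatocytic progenitors that share traits of fetal hepatoblasts, of oval cells (another type of liver progenitor) and of MHs. Their origin is disputed, and earlier studies cited there proposed oval cells or MHs.

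The stretches of RNA that the array read are shown for 7 of the 14 probes. Positions follow the array's annotation in rat build rn4 where it gives any. Letters are in lower case, and capitals mark a run of 4 AGC triplets in the Sox9 probe.
Krt19, A_44_P991819, chr10:89081437-89081496, minus strand: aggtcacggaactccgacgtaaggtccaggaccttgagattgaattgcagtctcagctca
Krt8, A_42_P784063, within chr7:140716967-140717949, minus strand: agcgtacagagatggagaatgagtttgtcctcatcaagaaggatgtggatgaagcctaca
Krt18, A_44_P1091902, chr2:80043817-80043876, plus strand: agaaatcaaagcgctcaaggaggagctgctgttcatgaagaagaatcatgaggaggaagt
Epcam, A_44_P163242, within chr6:11181855-11182638, plus strand: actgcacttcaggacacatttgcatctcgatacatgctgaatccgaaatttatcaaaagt
Sox9, A_64_P033298, chr10:102388891-102388950, plus strand: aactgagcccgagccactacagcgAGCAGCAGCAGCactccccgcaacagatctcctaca
Spp1, A_44_P491796, no position annotated: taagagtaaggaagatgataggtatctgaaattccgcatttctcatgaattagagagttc
Krt7, A_44_P1156582, no position annotated: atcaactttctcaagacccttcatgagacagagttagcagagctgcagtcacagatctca
None of the 14 probes shared a run of 20 bases, on either strand, with a probe of another gene on the array. The Krt18 probe shown, A_44_P1091902, does not stand for its gene below, and the position given for it is a single block on chromosome 2. The brighter Krt18 probe, A_64_P115506, stands for the gene, is not shown and has no annotated position. The Prom1 probe, A_64_P073904, lies at chr14:72230384-72230443 on the plus strand.

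The level used below is the log2 ratio of a signal to the 75th percentile of its own array. A level is compared between samples for the same probe only, since probes differ in brightness for the same amount of RNA. Between 57.0% and 61.5% of spots were well above background, as marked by the scanner software. The scanner file of control SHPC replicate 2 was incomplete, so its levels came from the deposited value table and its background marks were not used. The MHs and control SHPC replicates 1 and 2 lay in one set of 4 arrays of the slide, and control SHPC replicate 3 with the 3 BM-MC samples in the other. Hepatocyte identity was plain in every sample: all 12 hepatocyte markers fixed for this check, such as Alb and Hnf4a, were well above background on the 7 arrays with complete marks. Their summed linear level was 954 to 1012 in MHs, 945 to 1108 in control SHPCs and 874 to 1058 in SHPCs with BM-MCs, and none of the 12 passed the test in any comparison. In such bulk samples, fewer cells of a type and less RNA per cell cannot be told apart.

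Krt7 and Spp1 were at background on nearly every array, whereas Krt8 and Krt18, the keratin pair that hepatocytes share, were well above it on all arrays with complete marks. Of the 8 genes, 6 could be tested, by 7 probes, the filter being a mark well above background on 3 or more of the 7 arrays whose marks were complete. Krt7 and Spp1 were not tested, nor were 3 of the 4 Sox9 probes. Krt8, Krt18, Epcam, Prom1 and the tested Sox9 probe passed on all 7 arrays, and Krt19 on 6, with MH replicate 1 as the exception. The plot of signal over the background floor shows this for each probe.

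**Figure D1:**
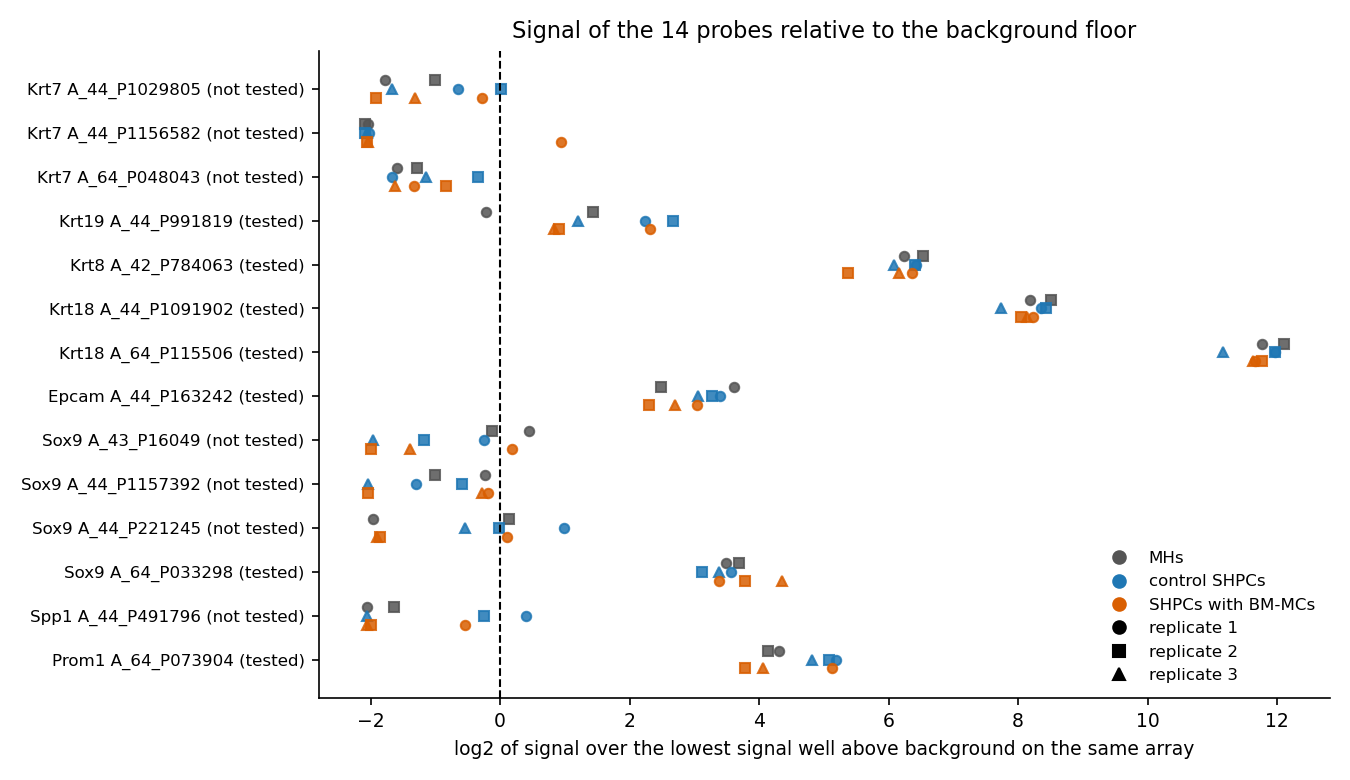
Signal of each of the 14 probes (rows) in each of the 8 samples (points; colour gives the group, shape the replicate), as log2 of the signal over the lowest signal marked well above background on the same array (dashed line at 0). The 7 probes not tested lie around or left of the line, and every point of Krt8, Krt18, Epcam, Prom1 and Sox9 probe A_64_P033298 lies right of it; distances of different probes are not compared.

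Spp1 encodes osteopontin, an abundant product of cholangiocytes. Its probe, printed on 10 spots, gave signals of 5.12 and 6.81 in MHs, 30.5, 22.3 and 6.15 in control SHPCs, and 20.7, 7.18 and 5.98 in SHPCs with BM-MCs. Control SHPC replicate 1 was the single array on which Spp1 was well above background, and the groups of SHPCs overlapped. The lowest signal well above background set only a bound for the MHs, and the control mean lay below that bound, so no fold is given. The 3 Krt7 probes were well above background on 0, 1 and 0 of 7 arrays. The exception was probe A_44_P1156582 in BM-MC SHPC replicate 1, at a signal of 57.7 on a single spot, against 4.98 to 6.88 in the other 7 samples. In that same sample the 10-spot Krt7 probe gave 24.6, with 20% of its spots well above background, and the third Krt7 probe gave 11.9, so the probes of this gene disagreed there.

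Sox9 probes disagreed as well. Probe A_64_P033298 was well above background everywhere, with signals of 230 to 509. Probe A_44_P1157392, which on chromosome 10 lies beyond it with 37 bases in between, was above background on none of the 7 arrays, with signals of 6.28 to 26.5. The remaining Sox9 probes, A_43_P16049 and A_44_P221245, each passed on 1 array, in MH replicate 1 and control SHPC replicate 1. No fold is given for these probes. The bright probe holds the run of AGC triplets capitalised in its sequence. Of all 45598 probes, 10, itself included, hold 4 or more units of an AGC, GCA or CAG repeat, and the part of this run in its signal was not tested. Values of Sox9 below rest on this probe alone.

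Krt19 gave the widest range of the tested genes. Its level was -6.34 and -4.88 in MHs, -3.80, -3.36 and -4.41 in control SHPCs, and -3.54, -4.75 and -4.96 in SHPCs with BM-MCs. All control SHPCs were above both MHs, and BM-MC replicate 1 lay among the controls while the other two were close to MH replicate 2. In linear terms its signal ran from 18.4 in MH replicate 1, which was not well above background, to 169 in control SHPC replicate 2.

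Prom1 varied little within the control SHPCs. Its level was -1.82 and -2.18 in MHs, -0.86, -0.96 and -0.79 in control SHPCs, and -0.73, -1.88 and -1.72 in SHPCs with BM-MCs. Control SHPCs and MHs did not overlap. BM-MC replicate 1 was the highest of all 8 samples, whereas BM-MC replicates 2 and 3 lay within or near the range of the MHs.

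Epcam was at -2.52 and -3.84 in MHs, -2.65, -2.76 and -2.55 in control SHPCs, and -2.81, -3.36 and -3.09 in SHPCs with BM-MCs. All 3 BM-MC samples were below all 3 controls, while the MHs bracketed every other sample. The tested Sox9 probe was at -2.64 in both MHs, at -2.48, -2.92 and -2.22 in control SHPCs and at -2.47, -1.88 and -1.42 in SHPCs with BM-MCs. BM-MC replicates 2 and 3 were the highest of all samples for this probe, and replicate 1 was level with the controls.

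The hepatocyte keratins varied least. Krt8 was at 0.11 and 0.20 in MHs, 0.39, 0.37 and 0.47 in control SHPCs and 0.51, -0.28 and 0.38 in SHPCs with BM-MCs, so that BM-MC replicate 2 was the lowest sample and replicate 1 the highest. The brighter Krt18 probe, A_64_P115506, ran from 5.55 in control SHPC replicate 3 to 6.11 in BM-MC replicate 2. The other Krt18 probe ran from 2.06 to 2.39, with both MHs and control SHPC replicate 3 at its lower end.

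**Figure D2:**
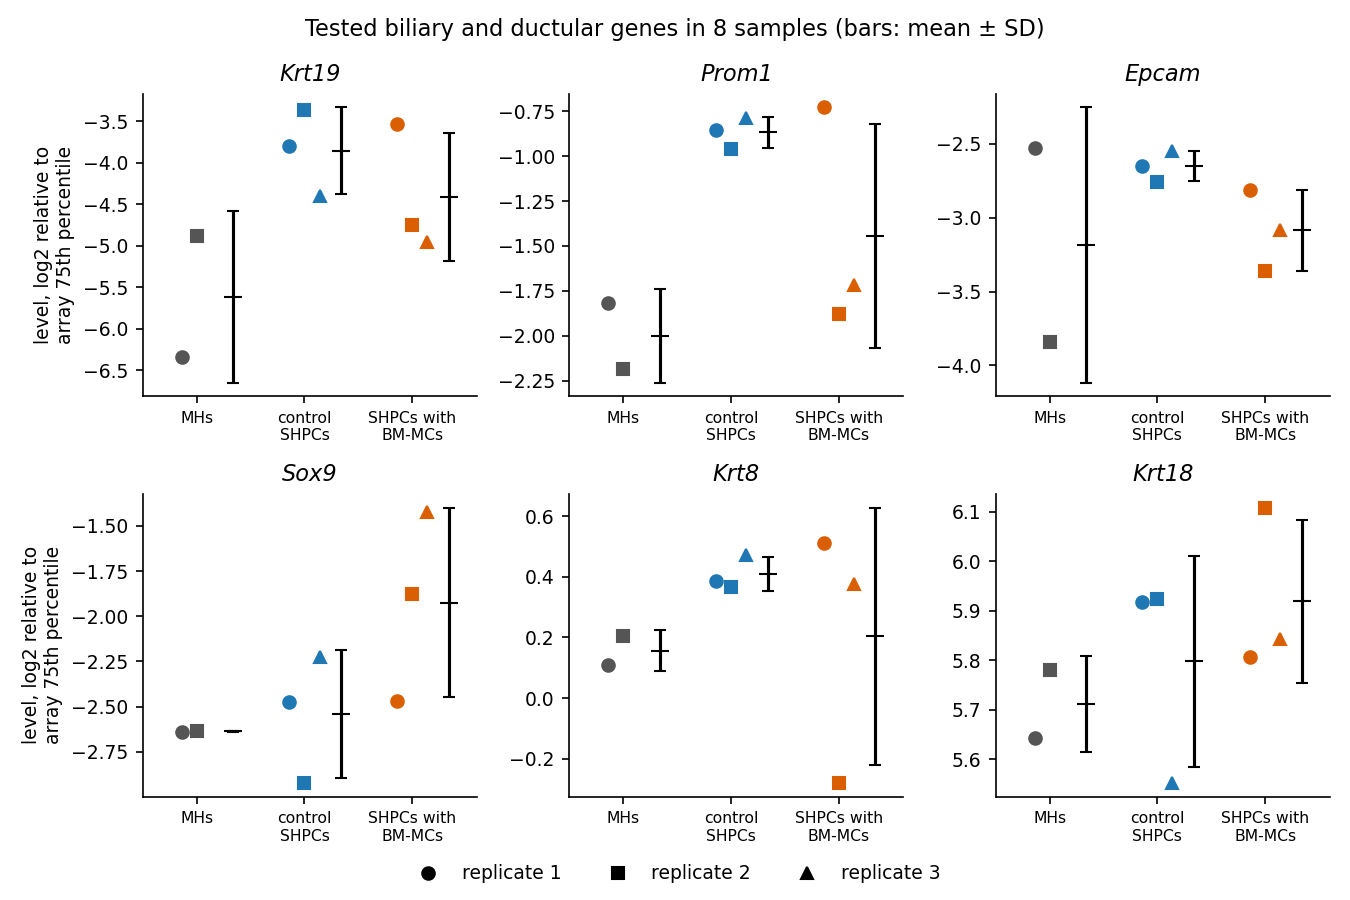
Level of the 6 tested genes (panels, brightest tested probe) in each sample of the 3 groups on the x axis, as log2 relative to the array's 75th percentile on the y axis, whose range differs between panels; point shapes are replicates, and the black marks are the group mean ± SD (n = 2 for MHs, n = 3 for the others). BM-MC SHPC replicate 1 sits with the control SHPCs for Krt19 and Prom1, and away from BM-MC replicates 2 and 3.

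Control SHPCs against MHs asked whether the progenitor clusters differ from mature hepatocytes in these markers. Krt19 and Prom1 had the largest differences, 1.76 and 1.13 on the log2 scale, and no gene passed the test: 0 were called higher and 0 lower by limma at an adjusted p under 0.05, where 0.919% of the 23065 tested probes were called higher and 0.212% lower. The mean level of Krt19 was -3.86 ± 0.52 (SD, n = 3) in control SHPCs and -5.61 ± 1.03 (SD, n = 2) in MHs. The difference of 1.76 had a standard error of 0.57 (limma unadjusted p = 0.017, adjusted p = 0.18). It was 1.02 without MH replicate 1, 2.49 without MH replicate 2 and 0.60 with normexp background correction and quantile normalization on 7 arrays (adjusted p = 0.31 from limma). Prom1 averaged -0.87 ± 0.087 (SD, n = 3) against -2.0 ± 0.26 (SD, n = 2), with a standard error of 0.33 for the difference (limma unadjusted p = 0.0095, adjusted p = 0.15). Prom1 passed when BM-MC SHPC replicate 1, which belongs to neither group but shares the estimate of spread, was left out (adjusted p = 0.031 from limma). With only the samples of both groups in the fit its adjusted p was 0.050.

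The remaining 4 tested genes had differences of 0.53 for Epcam, 0.25 for Krt8, 0.10 for Sox9 and 0.086 for Krt18 (adjusted p from limma 0.44 to 0.89). For Epcam the value was 1.19 without MH replicate 1 and -0.13 without MH replicate 2. All 6 differences were above 0, as were 6199 of all 14504 tested genes. Their median was 0.39 against -0.057 over all tested genes. At an unadjusted p under 0.05, 2 of the 6 passed, against 19.2% of all tested probes in either direction. Krt19, Prom1 and Krt8 were higher in every control SHPC than in every MH, as were 16.8% of all genes. Within the set of arrays that held both MHs and control SHPC replicates 1 and 2, the differences were 2.03 for Krt19 and 1.09 for Prom1.

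Macrophage markers lay the other way in the same samples. The summed linear level of the 10 genes of that list, all tested, was 90.0 to 96.1 in MHs, 46.4 to 67.3 in control SHPCs and 57.7 to 82.9 in SHPCs with BM-MCs. Of the 10, 9 were lower in control SHPCs than in MHs, beside 57.3% of all tested genes, and 0 of the 10 passed the adjusted test. Stellate cell and fibroblast markers were mixed, with 6 of the 10 tested of 12 above 0, beside 6199 of all 14504 tested genes, and a median of 0.091. Their summed linear level was 8.83 to 9.28 in MHs, 7.53 to 8.16 in control SHPCs and 7.497 to 11.5 in SHPCs with BM-MCs. Col1a1, a collagen chain gene, was at 1.11, Dcn, a matrix proteoglycan gene, at 1.12 and Pdgfrb, a growth factor receptor gene, at 0.47 (adjusted p = 0.16, 0.25 and 0.16 from limma). Reln, an extracellular matrix glycoprotein gene of stellate cells, lay the other way at -1.47, and Lrat, the retinol esterifying enzyme gene, at -0.63 (adjusted p = 0.099 and 0.22 from limma). Rgs5, a pericyte and stellate cell gene, was at -1.09 (adjusted p = 0.034 from limma) and was the single gene of the 7 cell type lists that was called. The part of these cell types in the differences of Krt19 and Prom1 was not tested.

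SHPCs with BM-MCs against control SHPCs asked whether transplantation changed these markers in the clusters. No gene passed: 0 were called higher and 0 lower by limma, where 0.0217% of the tested probes were called higher and 0.00% lower. Prom1 had a difference of -0.57 (standard error 0.30, adjusted p = 0.38), Krt19 of -0.56 (standard error 0.44, adjusted p = 0.54), Epcam of -0.43 (standard error 0.16, adjusted p = 0.27) and Krt8 of -0.20 (standard error 0.22, adjusted p = 0.65). Sox9 lay the other way at 0.62 (standard error 0.30, adjusted p = 0.36), with 0.37 without BM-MC replicate 3 and 0.89 without BM-MC replicate 1, and Krt18 at 0.12 (standard error 0.16, adjusted p = 0.71). The 95% intervals, without adjustment for the number of genes, were -1.31 to 0.16 for Prom1, -1.61 to 0.50 for Krt19 and -0.12 to 1.35 for Sox9, and each of these intervals still holds a 2-fold difference.

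Epcam was the gene of the list whose groups did not overlap, and its unadjusted limma p was 0.036. Among all tested genes, 11.3% were lower in every BM-MC sample than in every control and 16.6% of probes had an unadjusted p under 0.05 in either direction. The differences of Krt19 and Prom1 were larger without BM-MC replicate 1, at -0.996 and -0.93 (adjusted p from limma 0.34 and 0.18), and the unadjusted limma p of Prom1 fell to 0.00066. Over all samples left out in turn, Krt19 ran from -0.996 to -0.29 (without BM-MC replicate 3) and Prom1 from -0.93 to -0.36 (without BM-MC replicate 2). Krt19 was at -0.31 without control replicate 2 and at -0.83 without control replicate 3. Against control SHPC replicate 3 alone, which shared the set of arrays with all BM-MC samples, the difference was -0.0086 for Krt19, -0.65 for Prom1, -0.54 for Epcam, 0.30 for Sox9 and 0.37 for Krt18. Position on the slide and transplantation cannot be told apart for Krt19, since the 2 higher controls lay in the other set.

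Scaling to the array median, not the 75th percentile, lowers every value of this comparison by 0.191, and those against MHs by 0.007 for control SHPCs and by 0.198 for SHPCs with BM-MCs. Both Krt18 probes then changed sign, at -0.070 and -0.099. Granulocyte markers (4 of 8 tested) had a summed linear level of 1.14 to 1.59 in control SHPCs and 0.383 to 0.502 in SHPCs with BM-MCs. Of these 4, 3 had an unadjusted limma p under 0.05 and 0 passed the adjusted test, with S100a9 at -1.84 (adjusted p = 0.070 from limma). Erythroid markers, all 6 tested, had a summed linear level of 21.2 to 72.3 in control SHPCs and 10.5 to 14.4 in SHPCs with BM-MCs. Their median difference was -1.38, with 4 of 6 at an unadjusted limma p under 0.05 and 0 past the adjusted test. Of all tested probes, 16.6% had an unadjusted limma p under 0.05 in either direction. The part of such cells in the differences of Epcam or Prom1 was not tested.

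**Figure D3:**
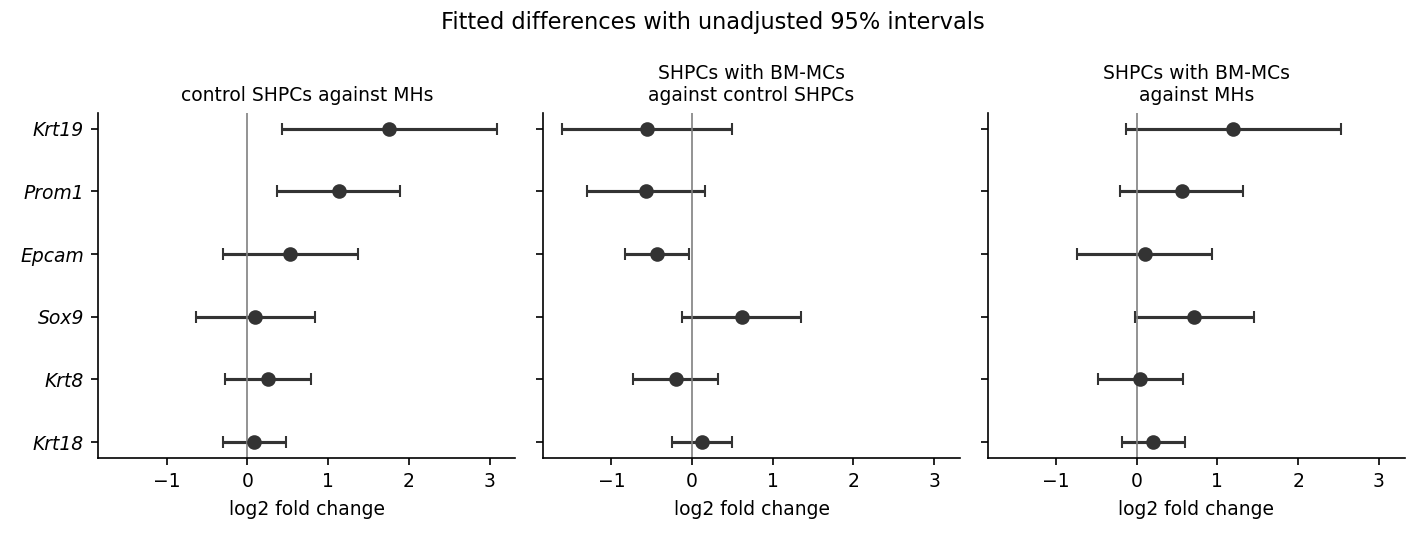
Fitted log2 fold change (x axis) of the 6 tested genes (y axis, brightest tested probe) in the 3 comparisons, with unadjusted 95% intervals from limma. The intervals of Krt19 and Prom1 in control SHPCs against MHs, and of Epcam in SHPCs with BM-MCs against control SHPCs, lie on 1 side of 0, and none passed after adjustment; the comparisons share samples.

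SHPCs with BM-MCs against MHs gave 0 genes called higher and 0 lower by limma, where 0.321% of the tested probes were called higher and 0.0173% lower. Krt19 differed by 1.20 (standard error 0.57, adjusted p = 0.41), Sox9 by 0.71 (standard error 0.32, adjusted p = 0.39) and Prom1 by 0.56 (standard error 0.33, adjusted p = 0.48). Each of these sizes moved with single samples. Krt19 was at 0.47 without MH replicate 1, 0.76 without BM-MC replicate 1 and 1.93 without MH replicate 2, Prom1 at 0.20 without BM-MC replicate 1, and Sox9 at 0.46 without BM-MC replicate 3. The MHs and the BM-MC samples lay in different sets of arrays on the slide, so neither set held both groups. With the set as a block, estimated through the control SHPCs, Sox9 was at 0.24, Krt19 at 2.02 and Krt18 at 0.58 (adjusted p from limma 0.72 to 0.99). Differences were 0.21 for Krt18, 0.099 for Epcam and 0.047 for Krt8. Sox9 and both Krt18 probes were higher in every BM-MC sample than in every MH, as were 14.8% of all genes. None of the 6 genes had an unadjusted p under 0.05, against 13.3% of all probes.

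The genes did not vary as a unit over the 8 samples. As a description over samples that share slide sets, Krt19, Krt8 and Epcam correlated with Prom1 at Pearson r of 0.73, 0.70 and 0.71, whereas Krt19 and Epcam correlated with each other at 0.11. Sox9 lay apart, at -0.26 with Prom1 and -0.23 with Krt19. Krt8 and Krt18, whose proteins form a filament together, were at -0.52. A mean profile was made of Krt19, Epcam, Sox9 and Prom1, each scaled to unit SD, which was lowest in MH replicate 2 and highest in control SHPC replicate 3. This profile correlated with Prom1 at 0.915, Epcam at 0.68, Krt19 at 0.67 and Sox9 at 0.13. The 5 genes most like it among 14405 were Nostrin (r = 0.98), Pde12 (r = 0.96), Fam83d (r = 0.95), Wdr93 (r = 0.95) and Corin (r = 0.95), with n = 8 samples. They are the extremes of 14405 values over 8 samples in 3 groups, so no relation to the list is drawn from them.

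Other genes of the duct epithelium gave a wider view. Of 37 companion genes on the list, 26 were tested, and among those not tested were Muc1, Sctr, Mmp7, Bicc1, Ehf, Gprc5a, Wnt7b, Vtcn1, Ncam1 and Cdh6. In control SHPCs against MHs, 1 of the 26 was called higher and 0 lower, where 0.919% and 0.212% of all tested probes were. This was Ggt1, gamma-glutamyltransferase, an enzyme of duct cells and of fetal and preneoplastic hepatocytes. Its level was -4.45 and -4.85 in MHs, -2.14, -2.16 and -2.07 in control SHPCs and -3.21, -3.21 and -1.87 in SHPCs with BM-MCs, and all SHPC samples were above both MHs. Ggt1 rose by 2.53 on the log2 scale in control SHPCs (standard error 0.39, adjusted p = 0.034 from limma). The call was lost with each MH or control SHPC sample left out in turn (adjusted p 0.068 to 0.17 from limma), without BM-MC SHPC replicate 2 (0.051) and with no filter on dim probes (0.093), and it held in 12 of 23 alternatives.

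Other companions that followed by p did not pass. Itga6, a laminin receptor chain, was at 1.02 and Cd24, a surface glycoprotein, at 0.64 (adjusted p = 0.099 and 0.12 from limma). Cldn4, a tight junction protein, was at 1.68 (adjusted p = 0.13 from limma), with 1 of 2 MHs well above background. Of the 26 companions, 20 were above 0, beside 6199 of all 14504 tested genes, with a median of 0.40 against -0.057 over all tested genes. At an unadjusted limma p under 0.05, 9 of the 26 passed, against 19.2% of all tested probes in either direction.

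In SHPCs with BM-MCs against control SHPCs, 0 of the 26 companions were called by limma in either direction, and 5 had an unadjusted p under 0.05, near the 16.6% of all tested probes. Of the 26 genes, 19 were below 0, beside 46.5% of all tested genes, with a median of -0.20 against 0.025 over all tested genes. Tspan8, a tetraspanin, was at -1.50, Cldn4 at -1.40 (each well above background in 1 of 3 BM-MC samples, and at -1.36 and -0.87 with dim spots set at the floor), Cldn3 at -0.48 and Cd24 at -0.42, whereas Onecut2, a transcription factor of early duct development, was at 0.57 (adjusted p from limma 0.18 to 0.26). The level of Cldn4 was -5.01, -4.30 and -4.67 in control SHPCs and -5.14, -6.44 and -6.60 in SHPCs with BM-MCs, so BM-MC replicate 1 was again the sample nearest to the controls. Ggt1 had a different order, with BM-MC replicate 3 nearest to the controls. This comparison and the one against MHs share the 3 control samples.

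**Figure D4:**
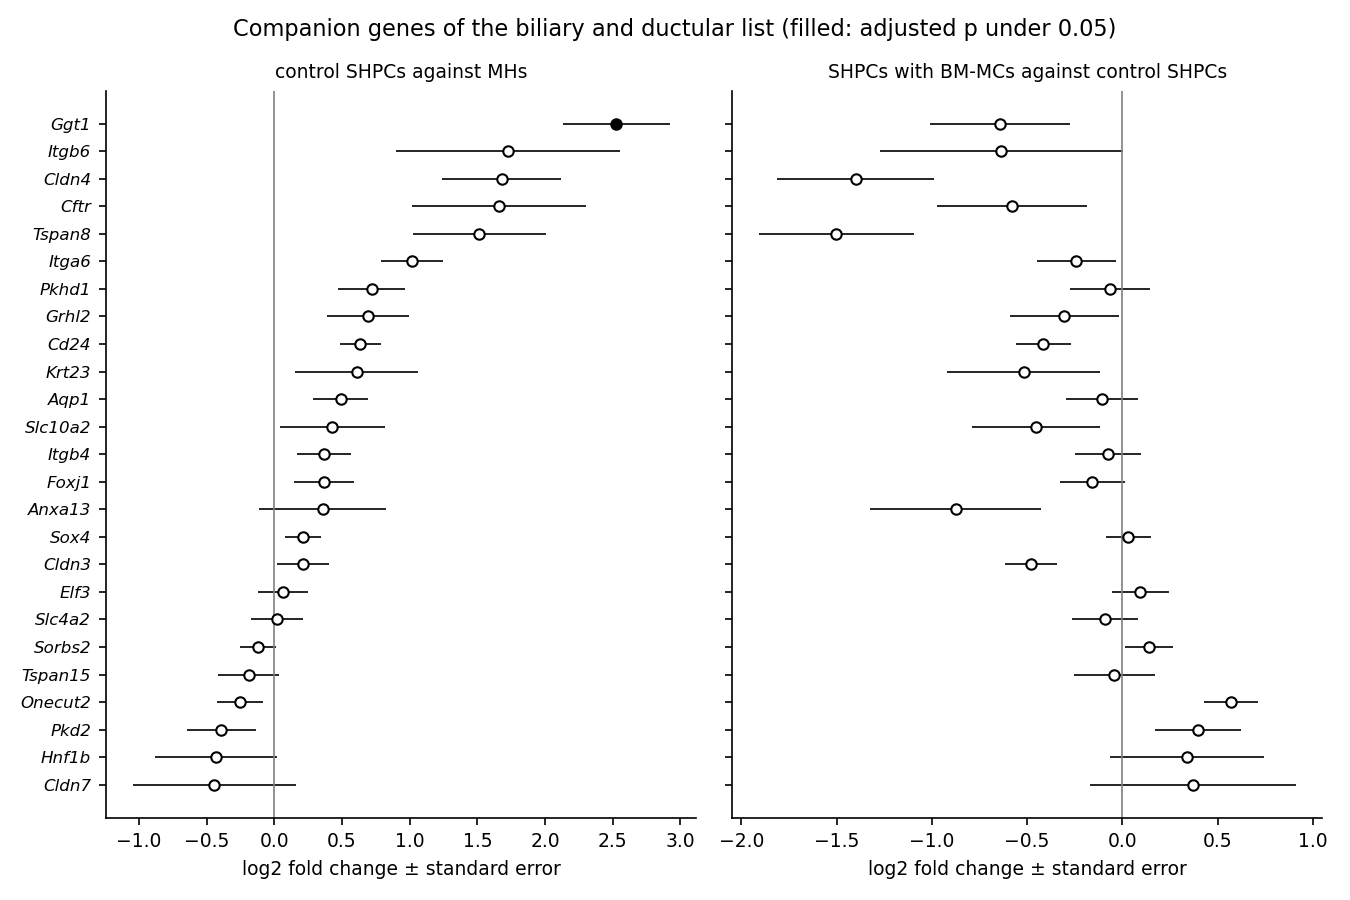
Fitted log2 fold change ± standard error (x axes, whose ranges differ) of 25 of the 26 tested companion genes of the duct epithelium (y axis, ordered by the left panel) in control SHPCs against MHs and in SHPCs with BM-MCs against control SHPCs; filled points passed an adjusted p under 0.05. Ggt1 at 2.53 is the single filled point, and the panels share the control SHPC samples.

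Notch signalling directs precursor cells to the duct fate: Jag and Dll ligands on one cell activate Notch receptors on its neighbour, which switch on Hes and Hey genes. Of 18 Notch pathway genes, 13 were tested and 0 were called by limma in any comparison, with 4 at an unadjusted p under 0.05 in control SHPCs against MHs and 1 in SHPCs with BM-MCs against control SHPCs, where 19.2% and 16.6% of all tested probes were. Among ligands, Dll1 was at 1.001 and Jag1 at 0.94 in control SHPCs against MHs (adjusted p = 0.097 and 0.15 from limma), and Dll1 was well above background in 1 of 2 MHs. The receptor gene Notch1 was at -0.54 and the targets Nrarp and Hes1 at 0.62 and 0.68 (adjusted p = 0.16, 0.15 and 0.27 from limma). In SHPCs with BM-MCs against control SHPCs, Notch1 was at 0.49, Notch3 at 0.67 and Dll1 at 0.18 (adjusted p from limma 0.23 to 0.52), and Notch3 was at 0.31 without BM-MC replicate 3. Dll4 was not well above background in the control SHPCs with complete marks, and Lfng was above it in 1 of 2 such controls and 1 of 3 BM-MC samples, so no fold is given for either.

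Other keratins and their junction partners gave 0 calls by limma among 11 tested of 15, with 1 at an unadjusted p under 0.05 in control SHPCs against MHs and 2 in SHPCs with BM-MCs against control SHPCs, beside 19.2% and 16.6% of all tested probes. Krt20, another type I keratin of simple epithelia, was at -5.42 and -4.76 in MHs, -3.56, -3.13 and -4.27 in control SHPCs and -3.82, -4.69 and -4.55 in SHPCs with BM-MCs. As for Krt19, every control SHPC was above both MHs and BM-MC replicate 1 lay among the controls; the difference between control SHPCs and MHs was 1.44 (standard error 0.40, adjusted p = 0.14 from limma). Cdh1, the cadherin of epithelial junctions, was at 0.36 in that comparison (adjusted p = 0.29 from limma). Of the 11 genes, 8 were below 0 there, beside 57.3% of all tested genes. Krt80 was at -0.79, with control SHPC replicate 3 above both MHs (adjusted p = 0.42 from limma). In SHPCs with BM-MCs against control SHPCs, the 2 at an unadjusted limma p under 0.05 were Krt5 and Krt14, both higher. Krt14 was well above background in 0 of 2 controls with complete marks, and Krt5 in 1 of 2 such controls and 1 of 3 BM-MC samples. No fold is given for either.

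Surface antigens used to sort liver progenitors gave 0 calls by limma among 9 tested of 12, with 3 at an unadjusted p under 0.05 in control SHPCs against MHs and 1 in SHPCs with BM-MCs against control SHPCs, beside 19.2% and 16.6% of all tested probes. Ly6e was at -0.58, the hepatocyte growth factor receptor gene Met at 0.42 and the hyaluronan receptor gene Cd44, which also binds osteopontin, at -0.94 in control SHPCs against MHs (adjusted p = 0.16, 0.22 and 0.24 from limma). The value of Cd44 was -0.53 without control SHPC replicate 3. Lgr5, Cd34 and Itga2 were not tested. The list of osteopontin receptors and matrix partners also held Thrb, a thyroid hormone receptor gene that is neither, and it is left out here. Of the other 10 genes 7 were tested and 0 were called by limma, with 1 at an unadjusted p under 0.05 in control SHPCs against MHs and 0 in SHPCs with BM-MCs against control SHPCs, beside 19.2% and 16.6% of all tested probes. All 7 were below 0 in control SHPCs against MHs, as were 57.3% of all tested genes, with a median of -0.23 against -0.057 over all tested genes, led by the integrin chain gene Itga9 at -0.55 (adjusted p = 0.24 from limma). In SHPCs with BM-MCs against control SHPCs 1 of the 7 was below 0, beside 46.5% of all tested genes, with a median of 0.18.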

How the data were processed

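RNA of 8 microdissected rat liver samples was measured on 1-colour Agilent arrays. The authors deposited processed signals, an intensity per spot from which Agilent Feature Extraction (version 10.7 per the submitters' processing notes) had subtracted background, without scaling between arrays; the deposited value table holds the same intensity for the 8 samples and was used for all of them. Spots marked as outliers were left out, log2 signals were taken relative to the array's 75th percentile over 58717 non-control spots, and spots of a probe were averaged. A probe was tested if 50% or more of its spots were marked well above background on 3 or more of the 7 fully marked arrays, which left 23065 probes and 14504 named genes. The brightest tested probe stood for a gene. Genes were named by accession and symbol through RefSeq's gene table and otherwise by the file. Differences were fitted in R 4.3.3 by limma 3.58.1, with p-values adjusted by Benjamini-Hochberg, on the 6 SHPC samples for the comparison of SHPCs and on all 8 for those with MHs, after a test on simulated data. The number of arrays limits the precision. Alternatives were other scalings, filters, background correction, blocks, weights, tests and single samples left out.

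Members and lists were chosen with earlier results of these data known. Named companions were the up to 5 genes of each list with the lowest unadjusted p in control SHPCs against MHs and in SHPCs with BM-MCs against control SHPCs. Protein sequences were not used here. Some listed genes are not reported here, and Thrb was left out of the osteopontin list after its values were seen.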

Additional observations from a re-analysis of the deposited data

How the results depend on the processing

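Over the alternatives, 469 log2 fold changes of the 7 tested probes were recomputed, and 444 kept their direction and their side of the threshold, 4 kept their direction and passed, and 21 changed sign. Every change of sign was in a value that had not passed. In SHPCs with BM-MCs against control SHPCs these were Krt8 without BM-MC replicate 2 (0.037) and Krt18 with each array set to its median (-0.099 and -0.070) or without control SHPC replicate 3 (-0.0014). In control SHPCs against MHs they were Epcam without MH replicate 2 (-0.13), Sox9 with the slide set as a block (-0.062) or without control SHPC replicate 3 (-0.062), and Krt18 with no scaling (-0.0019). In SHPCs with BM-MCs against MHs they were Krt8 with median scaling (-0.15), no scaling (-0.034), the slide set as a block (-0.049) or without MH replicate 1 (-0.0014), BM-MC replicate 1 (-0.11) or BM-MC replicate 3 (-0.040), and Epcam with median scaling (-0.099), normexp and quantile normalization (-0.10), the slide set as a block (-0.054), or without MH replicate 2 (-0.56) or BM-MC replicate 1 (-0.039). With single samples left out, the values with such a change ran in SHPCs with BM-MCs against control SHPCs from -0.36 to 0.037 (Krt8) and from -0.0014 to 0.18 (Krt18), in control SHPCs against MHs from -0.13 to 1.19 (Epcam) and from -0.062 to 0.29 (Sox9), and in SHPCs with BM-MCs against MHs from -0.11 to 0.29 (Krt8) and from -0.56 to 0.76 (Epcam). The causes were not tested.

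The number of the 8 genes called higher in control SHPCs than in MHs was 0 to 1 with single samples left out (Prom1 without BM-MC replicate 1) and 2 by the methods' t-test without adjustment (Krt8 and Prom1), which gave 0 after Benjamini-Hochberg adjustment. The other 5 counts stayed at 0 under every alternative, leaving out Krt18 probe A_44_P1091902, which does not stand for its gene and passed the unadjusted test in SHPCs with BM-MCs against MHs. The companions called higher in control SHPCs than in MHs numbered 0 with no filter on dim probes and 0 to 3 with single samples left out, an alternative chosen after seeing the data, and those called higher than in MHs in the BM-MC samples 0 to 1.

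Replicate numbers are shared between groups. The deviations of same-numbered control and BM-MC samples correlated at 0.13, 0.078 and 0.17. Different-numbered pairs of these groups ran from -0.15 to 0.082, the highest being control SHPC replicate 2 with BM-MC replicate 1. Same-numbered pairs with MHs ran from -0.13 to 0.051. These values do not settle whether the samples are paired, and the main fit did not pair them. With the replicate block 0 of the 8 genes were called in each comparison, Sox9 was at -0.11 in control SHPCs against MHs and Krt8 at -0.013 in SHPCs with BM-MCs against MHs. Signal over background limits Krt7, Spp1, 3 of the 4 Sox9 probes and Krt19 in MHs.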
